A study of Mus musculus with 11 samples.

Results

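The genes described here encode 10 cytokines and cytokine receptor chains with inflammatory or regulatory roles. They were chosen by gene symbol, and all 10 were found among the 23282 entries counted in every library. The inflammatory ligands were Il1a, Il1b, Il18, Tnf and Il6, and the regulatory genes were Il1rn, Il10, Il10ra, Tgfb1 and Tgfbr2. RNA was sequenced from colon macrophages of mice, which the labels give as sorted for CD45+CD11b+Ly6G-Ly6C-MHCII+CD64+. Wild-type (WT) mice gave 2 libraries titled day 0 and 3 titled day 39, and mice of the strain Csf1r-EP4-/- (here KO) gave 3 libraries at each day. EP4 is the prostaglandin E2 receptor encoded by Ptger4. All 11 libraries, day 0 included, carry the same treatment label: 2.5% dextran sodium sulphate (DSS), which injures the colon lining, in the drinking water for 5 days. The labels do not give the promoter or allele behind the deletion, the strain background, age or sex of the mice, or whether a library came from 1 animal or several. They also do not say that libraries of a group came from separate animals, so p-values measure only the spread between these libraries, which may be technical.

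Macrophages make interleukin 1 beta (IL-1β) as an inactive precursor that caspase 1 cuts in the inflammasome, and IL-18 is matured the same way. IL-1α and IL-1β signal through a shared receptor, which the antagonist encoded by Il1rn occupies without signalling. Interleukin 10 (IL-10) restrains inflammatory genes in gut macrophages, and mice that lack it or its receptor develop colitis. Prostaglandin E2 acting on EP4 raises cyclic AMP, a signal known to lower tumour necrosis factor (TNF) production by macrophages.

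Library totals ran from 4003299 to 14207919 counts, the highest in replicate 3 of KO day 0. Levels are given as counts and as counts per 1000000 (CPM) of the scaled library, and 3 counts, taken as the floor of a library, were worth 0.196 to 0.911 CPM. Counts were uneven between replicates: of 6987 genes tested, 461 (6.60%) had more than 3 counts in all 11 libraries, and the common biological coefficient of variation was 2.48. Ptger4, the targeted gene, had 0 and 0 counts in the WT day 0 libraries, 1350, 0 and 890 in those from KO day 0, 1481, 152 and 7286 in those from WT day 39 and 1, 8 and 4501 in those from KO day 39. It did not separate the labels: 3 libraries labelled KO held over 100 counts and both WT day 0 libraries held none. A 3′ tag outside a deleted part would not show the deletion, and which part was deleted is not stated. Counts near 0 were common: the median tested gene had more than 3 counts in 4 of the 11 libraries. The reason for the layout of the Ptger4 counts was not tested. Whether any library carries the label of another group was not tested, and exchanged labels would change the genotype values, so each genotype comparison below rests on the labels alone. Of 12 macrophage and sort markers, H2-Ab1, Csf1r, Cx3cr1, C1qa and Lyz2 had more than 3 counts in every library, Mertk had 0 in all, and Ptprc, Itgam, Fcgr1, Cd68, Adgre1 and Cd14 each had 3 or fewer in at least 1 library. Col1a1 of fibroblasts had at least 4814 counts and Acta1 of skeletal muscle at least 1915 in each library, though neither cell type belongs to the labelled sort. Replicates 2 and 3 of KO day 0 stood apart: their skeletal muscle markers summed to 21655 and 18385 CPM and their stromal markers to 18508 and 20842, against 1752 to 14059 and 3035 to 15212 in the other libraries, and replicate 3 had the lowest macrophage and sort marker sum, 5189 CPM against 6817 to 23374. Cd3e, Cd3g and Cd8a of T cells, Cd79a and Ms4a1 of B cells and Flt3, Zbtb46 and Ccr7 of dendritic cells had 0 counts throughout, but other genes of the T, NK, B and plasma cell lists did not: Cd4, which some macrophages also express, reached 2328 counts, Nkg7 1634, Il7r 1315, Jchain 1178 and Mzb1 287 in their highest library. Xcr1 of the dendritic cell list reached 10 counts, in replicate 3 of KO day 0. Genes of the Ly6C antigen, which the sort was to exclude, were present in some libraries: Ly6c1 had 2323 counts in replicate 2 of KO day 0 and at most 17 elsewhere, and Ly6c2 had 2100 in replicate 1 of KO day 39, 556 in replicate 2 of WT day 39, 459 in replicate 1 of KO day 0 and at most 25 elsewhere. Of 5 mast cell genes, Mcpt2 and Fcer1a had 0 counts throughout, Cpa3 had 2222 in replicate 3 of KO day 0 and at most 1 elsewhere, Mcpt1 17 in that library and 0 elsewhere, and Kit 947 in replicate 2 of KO day 39 and at most 6 elsewhere.

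Among the cytokine genes, Il1b alone had more than 3 counts in all 11 libraries. Il1rn had at least 661 counts in each day 39 library and at most 1 count in 4 of the 5 day 0 libraries. Il10ra showed the opposite layout, with 146 to 3053 counts in 4 of the 5 day 0 libraries and at most 5 in each day 39 library. Tnf, Il18, Il1a and Tgfbr2 each had high counts in some libraries and counts near 0 in others. Il6 and Il10 passed 3 counts in 1 library each and Tgfb1 in none. A library had more than 3 counts for 2 to 6 of the 10 genes.

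**Figure D1:**
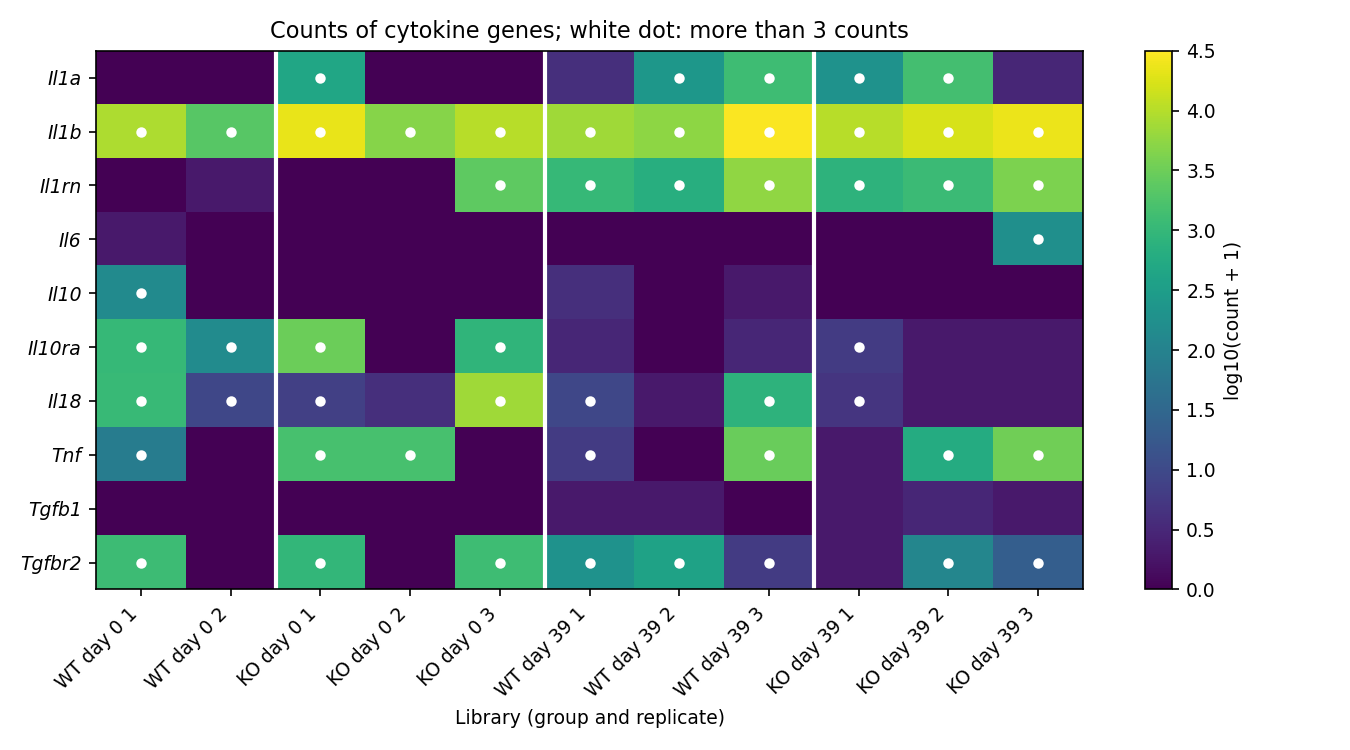
Counts of the 10 genes in each library on a log10(count + 1) colour scale, with libraries in columns by group and replicate and a white dot where a gene had more than 3 counts. Il1b is dotted in all 11 columns, Il1rn in the 6 day 39 columns and 1 day 0 column, and Il10ra in 4 day 0 columns and 1 day 39 column.

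The 7 genes that passed the filter on low counts were tested in 6 comparisons with edgeR's quasi-likelihood test, with p-values adjusted over all 6987 genes. An SE printed with an edgeR log2 fold change was worked back from the F statistic of that test. It restates the test and is no separate estimate of error. The other 3 genes, Il6, Il10 and Tgfb1, did not pass. In day 39 against day 0, averaged over the genotype labels, 0 of 7 were called at an adjusted p under 0.05, where 0.301% of all tested genes were. Unadjusted, 3 of 7 (Il1rn, Il1b and Il10ra) had a p under 0.05, against 19.2% of all genes. The count called was also 0 of 7 within WT (0.0143% of all genes) and within KO (0.157%), with 1 and 0 genes at an unadjusted p under 0.05 against 6.68% and 18.2%. For KO against WT, 0 of 7 were called at day 0 (0.0143% of all genes) and at day 39 (0.0286%), with 1 and 0 at an unadjusted p under 0.05 against 7.99% and 7.28%. The test of whether the genotype difference itself differed between the days called 0 of 7 and 0% of all genes, with 1 of 7 at an unadjusted p under 0.05 against 14.4%. DESeq2 gave an adjusted p to 6 of the 7 genes, Il18 having none in any comparison, and called more of them: 3 of 6 for the day averaged over the labels (Il1rn, Il1a and Il10ra), 3 in WT, 1 in KO, 2 and 0 for the genotype at day 0 and day 39, and 1 for the difference between the days. It also called 29.2%, 28.4%, 27%, 30%, 14.5% and 22.5% of all genes that it gave an adjusted p, in that order.

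The median log2 fold change of the 7 genes at day 39, averaged over the labels, was 1.51, beside 0.76 for all tested genes. The median over all genes moved to 0.59 with DESeq2 size factors and 0.55 with library size only. In WT the medians were 1.64 for the 7 genes and 1.64 for all genes, and in KO they were 1.26 and 0.

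**Figure D2:**
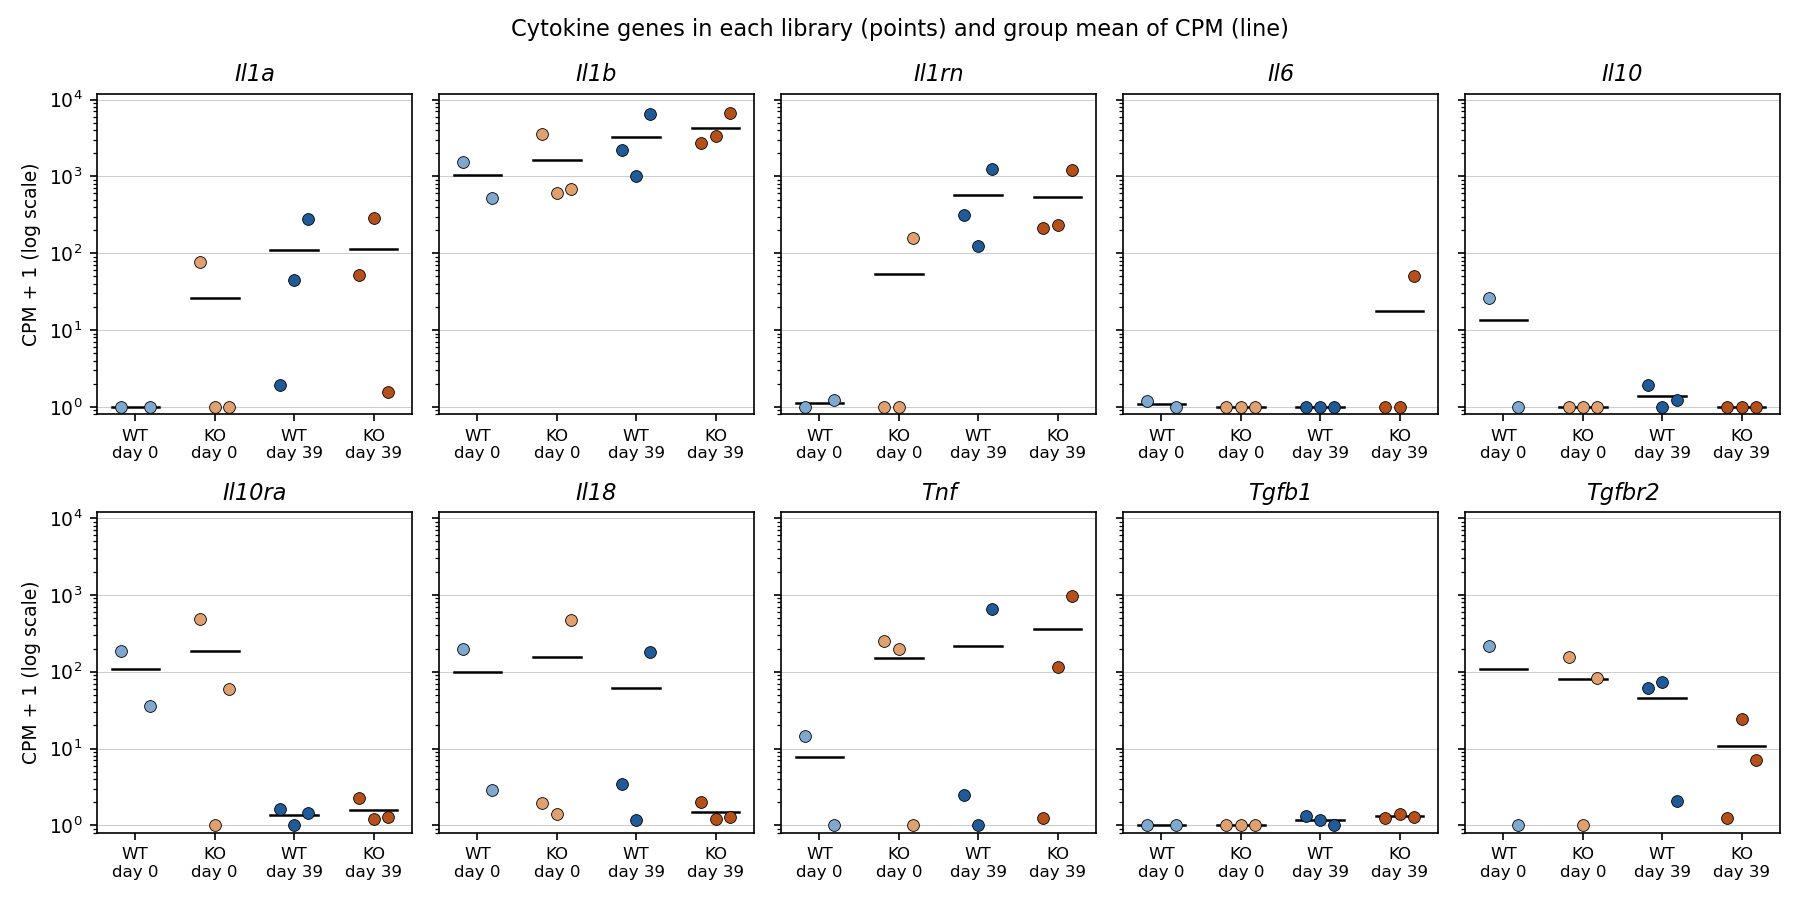
CPM + 1 on a log scale for each of the 10 genes, with 1 point per library and a line at the group mean of CPM, by genotype label and day. Il1b points lie between 515 and 6667 CPM, while points of the other tested genes reach from 0 or under 1 CPM upward.

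Il1b had 8724 and 2184 counts in the WT day 0 libraries, 22294, 4749 and 10572 in those from KO day 0, 7192, 5478 and 29785 in those from WT day 39 and 10526, 16929 and 23139 in those from KO day 39. In CPM these were 1559 and 515 in the WT day 0 libraries, 3583, 611 and 692 in those from KO day 0, 2183, 1008 and 6523 in those from WT day 39 and 2722, 3345 and 6667 in those from KO day 39. The day 39 libraries included the highest ones, but the days overlapped: replicate 1 of KO day 0 stood above 4 of the 6 day 39 libraries. Mean levels of Il1b were 1392 CPM ± 1294 (SD, n = 5) at day 0 and 3742 ± 2341 (n = 6) at day 39, a ratio of 2.69. The log2 fold change at day 39, averaged over the labels, was 1.51 ± 0.59 (SE) with an unadjusted p of 0.00984 and an edgeR adjusted p of 0.192. Relative to the median gene it was 0.75, or 0.69 with DESeq2 size factors and 0.62 with library size only. Without replicate 1 of KO day 0, the highest day 0 library, the log2 fold change was 2.18 and the edgeR adjusted p 0.0161, so the call turned on that library. That fit called 62 of all tested genes, against 21 with all libraries. Without replicate 3 of WT day 39 the log2 fold change of Il1b was 1.0001.

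Within each label Il1b lay higher at day 39 on average, with overlap. In WT the means were 1037 CPM ± 738 (SD, n = 2) and 3238 ± 2905 (n = 3), with a log2 fold change of 1.64 ± 0.89 (SE) at an edgeR adjusted p of 0.414, which equalled the median of all genes in that comparison to 2 decimals. In KO the means were 1628 CPM ± 1693 (SD, n = 3) and 4245 ± 2121 (n = 3), with a log2 fold change of 1.38 ± 0.76 (SE) at an edgeR adjusted p of 0.294. Single libraries moved both values: the WT value was 0.62 without replicate 3 of WT day 39 and 2.50 without replicate 1 of WT day 0, and the KO value was 0.90 without replicate 3 of KO day 39 and 2.71 without replicate 1 of KO day 0.

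The Il1b promoter is shown because Il1b was the gene detected throughout, and the Il1rn and Tnf promoters follow for the antagonist and for the cytokine known to respond to EP4 signalling. Each is a RefSeq window of GRCm38.p6, from 250 bases before the start site to 50 after it, printed 5′ to 3′ on the gene's strand. Capitals mark matches, on either strand, to GGGA and TTCC set 2 bases apart (NF-kB, an inflammatory transcription factor), TGACG (the core of the cyclic AMP response element), TGANTCA (AP-1), TTNNGNAA (C/EBP, factors of myeloid cells) and TATAAA (the TATA box). The Il1b window is chr2:129371090-129371389 on the minus strand, the first Il1rn window is chr2:24336610-24336909 on the plus strand, and the Tnf window is chr17:35201958-35202257 on the minus strand.
Il1b: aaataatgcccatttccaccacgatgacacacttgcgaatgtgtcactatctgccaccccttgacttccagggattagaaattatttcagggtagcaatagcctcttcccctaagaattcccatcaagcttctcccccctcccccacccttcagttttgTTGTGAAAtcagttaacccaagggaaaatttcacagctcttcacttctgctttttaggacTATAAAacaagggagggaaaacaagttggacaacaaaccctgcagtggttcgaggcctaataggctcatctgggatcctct
Il1rn: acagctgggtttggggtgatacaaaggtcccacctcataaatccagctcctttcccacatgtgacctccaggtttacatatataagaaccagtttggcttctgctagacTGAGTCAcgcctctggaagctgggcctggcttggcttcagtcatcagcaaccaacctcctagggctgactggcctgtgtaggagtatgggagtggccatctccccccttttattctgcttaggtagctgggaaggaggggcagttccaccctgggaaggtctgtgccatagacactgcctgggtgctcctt
Tnf: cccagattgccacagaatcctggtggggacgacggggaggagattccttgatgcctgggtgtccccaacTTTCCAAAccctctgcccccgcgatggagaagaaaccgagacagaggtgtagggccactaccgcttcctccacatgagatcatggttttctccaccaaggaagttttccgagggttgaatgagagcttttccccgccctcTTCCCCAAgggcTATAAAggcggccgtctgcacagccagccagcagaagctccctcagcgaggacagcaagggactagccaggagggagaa
The Il1b window held a C/EBP match 91 bases and a TATA box 31 bases before the start site. The Tnf window held C/EBP matches 181 and 41 bases before the start site and a TATA box 29 bases before it. The printed Il1rn window held an AP-1 match 141 bases before the start site and no C/EBP match. RefSeq gives Il1rn 3 windows, and the other 2, not printed, begin at bases 24345041 and 24345121 of chr2. Both held C/EBP matches and 1 of them a TATA box. Which Il1rn start site these cells used was not tested. Over all 32851 windows, 40.7% held the C/EBP letters, 13.6% TATAAA, 7.81% AP-1, 20.8% TGACG and 1.47% the NF-kB letters. Among the 8 members with a window, Il6 alone held the NF-kB and TGACG letters. A match describes letters, not a site in use, and a window without a match says nothing about the factor.

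Il1rn encodes the antagonist of the IL-1 receptor. It had 0 and 1 counts in the WT day 0 libraries, 0, 0 and 2391 in those from KO day 0, 1040, 661 and 5756 in those from WT day 39 and 807, 1160 and 4144 in those from KO day 39. In CPM these were 0 and 0.236 in the WT day 0 libraries, 0, 0 and 156 in those from KO day 0, 316, 122 and 1261 in those from WT day 39 and 209, 229 and 1194 in those from KO day 39. Each day 39 library of Il1rn stood above each day 0 library of its own label, as did 12.7% of all tested genes in WT and 8.07% in KO. Across labels the days overlapped, because replicate 3 of KO day 0 lay above replicate 2 of WT day 39. Counts above 3 in all 6 day 39 libraries and in at most 1 day 0 library, a layout described after the Il1rn counts were seen, were found for 56 tested genes (0.801%).

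The mean level of Il1rn was 31.3 CPM ± 69.96 (SD, n = 5) at day 0 and 555 ± 525 (n = 6) at day 39, a ratio of 17.7. Averaged over the labels, its log2 fold change was 7.71 ± 2.45 (SE), with an unadjusted p of 0.00168, an edgeR adjusted p of 0.136 and a DESeq2 adjusted p of 0.00191. Without replicate 3 of KO day 0, in a fit that called 22 of all tested genes against 21, the log2 fold change was 13.15 and the edgeR adjusted p 0.0118. This library therefore decided the edgeR call. It is the library with the lowest macrophage and sort marker sum, with high muscle and stromal sums and with nearly all counts of the mast cell gene Cpa3. Its other marker counts were uneven: it is the deepest library, and it had 2661 counts of Epcam, 13550 of Cdh1 and 514 of Krt8 but 0 of the other 10 epithelial markers, with an epithelial sum of 1095 CPM, inside the range of the other day 0 libraries. Of the neutrophil markers it had 649 counts of Csf3r and at most 1 of each other, and of endothelial Pecam1 it had 1995. The part of these cells in its Il1rn count was not tested. In WT the day 0 group held 1 count. Against that 1 count, taken per 1000000 of the summed scaled sizes of both day 0 libraries, the WT day 39 mean was 5570 times as high, with an exact 95% Poisson interval from 999.7 to 220004, which covers counting error of that count only. The WT log2 fold change was 12.05 ± 4.25 (SE) at an edgeR adjusted p of 0.414. In KO the ratio of mean CPM was 10.4 and the log2 fold change 3.38 ± 2.41 (SE) at an edgeR adjusted p of 0.421. The KO log2 fold change was 14.32 without replicate 3 of KO day 0 and 2.07 without replicate 3 of KO day 39. Fitted values against a group at or near 0 depend on the prior count of the model and are no bounds.

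Epithelial genes also tended to higher sums at day 39, with overlap between the days. The 13 epithelial markers summed to 919 and 1776 CPM in the WT day 0 libraries, 74.7 to 1340 in those from KO day 0, 1582 to 6869 in those from WT day 39 and 3841 to 8990 in those from KO day 39. Between 3 and 6 of the 13 had more than 3 counts in a day 0 library, and between 7 and 11 in a day 39 library. Epithelial cells lack CD45 and fall outside the labelled sort. Neutrophils were to be excluded by the Ly6G- sort, and their 6 markers summed to 0.257 to 85.4 CPM at day 0 and 0.184 to 236 at day 39. The part of these cells in the Il1rn and Il1b counts was not tested, and in bulk samples fewer cells of a type and less RNA per cell cannot be told apart.

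Within a library, Il1rn can be set against Il1b with no scaling between libraries. At day 0 there were 0 and 0.0458 Il1rn counts per 100 Il1b counts in WT and 0, 0 and 22.6 in KO. At day 39 there were 14.5, 12.1 and 19.3 in WT and 7.67, 6.85 and 17.9 in KO. All 6 day 39 libraries lay above 4 of the 5 day 0 libraries, and replicate 3 of KO day 0 lay above them all.

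**Figure D3:**
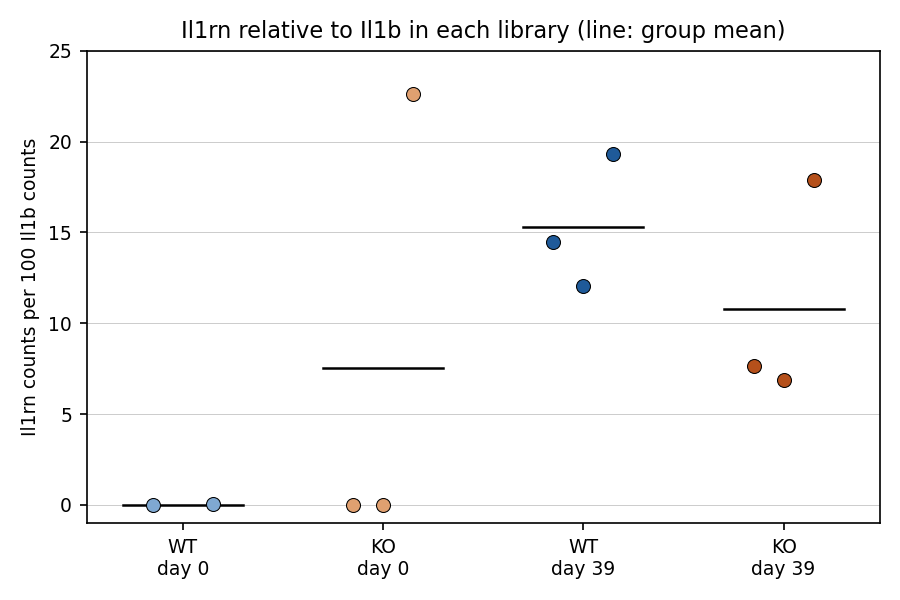
Il1rn counts per 100 Il1b counts in each library (points) with the group mean (line), by genotype label and day. Day 39 points lie between 6.85 and 19.3, and day 0 points lie at or near 0 apart from replicate 3 of KO day 0 at 22.6.

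Il1a encodes IL-1α, the ligand that is active without caspase 1. It had 0 and 0 counts in the WT day 0 libraries, 467, 0 and 0 in those from KO day 0, 3, 240 and 1287 in those from WT day 39 and 197, 1449 and 2 in those from KO day 39. Each group with counts also held a library at 3 counts or fewer, and the WT libraries were higher at day 39 with no overlap, as held for 12.7% of all tested genes. That separation rested on replicate 1 of WT day 39, whose 3 counts are at the floor, against 0. Mean levels of Il1a at day 39 were 109 CPM ± 151 (SD, n = 3) in WT, at least 175-fold higher than in WT day 0 taken at the floor of 3 counts per library, and 113 ± 153 (n = 3) in KO, 4.502 times the 25.02 ± 43.3 (n = 3) of KO day 0. The 175-fold bound covers counting at the floor only, not the spread between libraries. Replicate 3 of WT day 39 held 282 CPM against 0.911 and 44.1 in replicates 1 and 2. Replicate 2 of KO day 39 held 286 CPM against 50.9 and 0.576 in replicates 1 and 3. The log2 fold change averaged over the labels was 7.25 ± 3.82 (SE) at an edgeR adjusted p of 0.275, and in WT 12.33 ± 6.80 (SE) at an edgeR adjusted p of 0.414. The WT value was 10.09 without replicate 3 of WT day 39. The KO day 0 mean came from replicate 1 alone, without which the averaged log2 fold change was 12.35. Il1a shares its position with Gm14023, listed at up to 2892 counts, and Il1b with Il1bos, at up to 432. Whether the counting used strand is not given, so reads of such partners could not be told apart from those of Il1a and Il1b.

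Il18 encodes the IL-1 family cytokine IL-18. It had 1095 and 8 counts in the WT day 0 libraries, 6, 3 and 7133 in those from KO day 0, 8, 1 and 811 in those from WT day 39 and 4, 1 and 1 in those from KO day 39. The counts were concentrated in 3 libraries, 1 in each group other than KO day 39, and the days overlapped. Mean levels of Il18 were 98.8 CPM ± 137 (SD, n = 2) in the WT day 0 libraries, 156 ± 269 (n = 3) in those from KO day 0, 60.1 ± 102 (n = 3) in those from WT day 39 and 0.507 ± 0.459 (n = 3) in those from KO day 39. The log2 fold change at day 39 was -4.46 ± 3.004 (SE) at an edgeR adjusted p of 0.408 averaged over the labels and -8.21 ± 4.96 (SE) at an edgeR adjusted p of 0.331 in KO. Both rested largely on replicate 3 of KO day 0, without which they were -0.37 and -0.34, and the averaged value was -1.75 without replicate 1 of WT day 0 and -7.22 without replicate 3 of WT day 39. Casp1, which encodes the protease that matures IL-1β and IL-18 and was picked out after its counts were seen, had 1157 and 0 counts in the WT day 0 libraries, 1084, 0 and 0 in those from KO day 0 and at most 4 in each day 39 library. Its log2 fold change averaged over the labels was -8.78 ± 3.83 (SE) at an edgeR adjusted p of 0.200.

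Tnf encodes TNF. It had 76 and 0 counts in the WT day 0 libraries, 1559, 1527 and 0 in those from KO day 0, 5, 0 and 2971 in those from WT day 39 and 1, 582 and 3306 in those from KO day 39. Each group held a library at 0 or 1 count, so no pair of groups was separated. Mean levels of Tnf were 6.79 CPM ± 9.60 (SD, n = 2) in the WT day 0 libraries, 149 ± 132 (n = 3) in those from KO day 0, 217 ± 375 (n = 3) in those from WT day 39 and 356 ± 520 (n = 3) in those from KO day 39. At day 39 against day 0, averaged over the labels, the log2 fold change was 3.13 ± 2.39 (SE) at an edgeR adjusted p of 0.484, and it was -0.95 without replicate 3 of WT day 39, 1.81 without replicate 3 of KO day 39 and 7.21 without replicate 1 of WT day 0.

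Il6 encodes interleukin 6, an inducer of the acute phase response. It had 172 counts in replicate 3 of KO day 39, 1 count in replicate 1 of WT day 0 and 0 in the other 9 libraries. Replicate 3 of KO day 39 also had the highest Tnf count. Il10, the gene of the regulatory cytokine itself, had 139 counts in replicate 1 of WT day 0, 3 and 1 in WT day 39 replicates 1 and 3 and 0 in the other 8 libraries. At this depth a level under the floor of 3 counts was not detectable, and neither gene entered a test.

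Il10ra encodes the ligand-binding chain of the IL-10 receptor. It had 1021 and 146 counts in the WT day 0 libraries, 3053, 0 and 890 in those from KO day 0, 2, 0 and 2 in those from WT day 39 and 5, 1 and 1 in those from KO day 39. Both WT day 0 libraries stood above all WT day 39 libraries, as did 4.72% of all tested genes, while in KO the day 0 library at 0 counts made the days overlap. More than 3 counts in at least 4 day 0 libraries and at most 1 day 39 library, again a layout described after the counts were seen, were found for 63 tested genes (0.902%). Mean levels of Il10ra were 153 CPM ± 201 (SD, n = 5) at day 0 and 0.471 ± 0.453 (n = 6) at day 39. The day 39 mean lay under the floor of 3 counts, 0.552 to 0.911 CPM in those libraries, so no ratio of the means is given. Replicate 1 of KO day 0 alone held 63.8% of the Il10ra CPM summed over all libraries. The log2 fold change averaged over the labels was -8.22 ± 3.57 (SE), with an unadjusted p of 0.0214, an edgeR adjusted p of 0.199 and a DESeq2 adjusted p of 7.44e-05. In WT the log2 fold change was -8.21 ± 5.09 (SE) at an edgeR adjusted p of 0.414, and in KO it was -8.22 ± 5.01 (SE) at an edgeR adjusted p of 0.333. With each library left out in turn it ranged from -8.95 to -6.88 averaged over the labels, -8.90 to -6.72 in WT and -9.49 to -5.56 in KO. Il10rb, the second chain of the receptor, chosen after its counts were seen, did not share the layout: it had 169 and 3 counts in the WT day 0 libraries, 10, 1868 and 1 in those from KO day 0, 318, 955 and 0 in those from WT day 39 and 2, 884 and 3 in those from KO day 39.

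Tgfb1 encodes transforming growth factor beta 1, a cytokine of tissue repair and tolerance. It had 0 counts in the 5 day 0 libraries and 0 to 2 counts in the day 39 libraries. Tgfbr2 encodes a receptor chain that binds this ligand, and it had 1213 and 0 counts in the WT day 0 libraries, 966, 0 and 1240 in those from KO day 0, 198, 395 and 5 in those from WT day 39 and 1, 116 and 21 in those from KO day 39. The 3 highest counts were at day 0, where the other 2 libraries were at 0. The log2 fold change of Tgfbr2 averaged over the labels was -2.15 ± 2.86 (SE) at an edgeR adjusted p of 0.761, and without replicate 1 of WT day 0 it was 3.92.

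KO was then compared with WT at each day, which addresses whether these cytokine genes differed with the EP4 label. None of the 7 tested members separated the labels at day 0, where 6.73% of all tested genes were higher and 5.25% lower in KO without overlap, or at day 39, where 3.41% and 3.99% were. At day 0 the log2 fold change was 0.65 ± 0.85 for Il1b (SE) at an edgeR adjusted p of 0.783, below the median of 1.08 over all tested genes, and -0.68 without replicate 1 of KO day 0. Without replicate 3 of KO day 0 or replicate 1 or 2 of WT day 0 it was 0.996, 1.53 and 0.20. For Tnf it was 4.45 ± 3.86 (SE) at an edgeR adjusted p of 0.533, with a ratio of mean CPM of 21.9. Its WT day 0 mean came from the 76 counts of replicate 1, without which the log2 fold change was 12.81. For Il1rn it was 8.61 ± 3.74 (SE, unadjusted p = 0.0214, edgeR adjusted p = 0.381, DESeq2 adjusted p = 0.0311). That value came from 1 library, since the other 4 day 0 libraries had 0 or 1 Il1rn count, and without replicate 3 of KO day 0 it was -2.61. Il1a had the largest fitted difference of the members at day 0, 10.20 ± 6.24 (SE, edgeR adjusted p = 0.381). DESeq2 fitted 22.62 for Il1a, with an adjusted p of 2.71e-08. It too came from 1 library, the 467 counts of replicate 1 of KO day 0 against 0 in the other 4, and without that library the log2 fold change was 0.

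At day 39 the mean levels of Il1rn were close, 566 CPM ± 609 (SD, n = 3) in WT and 544 ± 563 (n = 3) in KO. The log2 fold change was -0.06 ± 2.20 for Il1rn (SE) at an edgeR adjusted p of 1, 0.39 ± 0.75 for Il1b (SE) at an edgeR adjusted p of 0.984, 0.71 ± 2.82 for Tnf (SE) at an edgeR adjusted p of 1 and -6.83 ± 4.67 for Il18 (SE) at an edgeR adjusted p of 0.503. With errors of this size, the test does not show that KO and WT were alike. Il1b went to -0.10 without replicate 3 of KO day 39, and to 0.04, -0.12 and 1.42 without replicates 1, 2 and 3 of WT day 39. Tnf went to -1.92 without replicate 3 of KO day 39, to 8.86 without replicate 3 of WT day 39, and to -0.01 without replicate 1 or replicate 2 of WT day 39. Il18 went to -1.32 without replicate 3 of WT day 39, the 1 day 39 library with more than 8 Il18 counts. Il1rn went to 0.25, 0.32 and -1.38 without replicates 1, 2 and 3 of KO day 39, and to 1.32 without replicate 3 of WT day 39. The change of the Il1rn difference from day 0 to day 39 was -8.66 ± 4.07 on the log2 scale (SE, unadjusted p = 0.0333, edgeR adjusted p = 0.324), and 2.34 without replicate 3 of KO day 0. DESeq2 did not call it (adjusted p = 0.130). The DESeq2 call for this change was Il1a, at -22.48 (adjusted p = 5.57e-05), with an edgeR value of -10.16 ± 6.60 (SE, adjusted p = 0.449) that was 0.048 without replicate 1 of KO day 0.

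**Figure D4:**
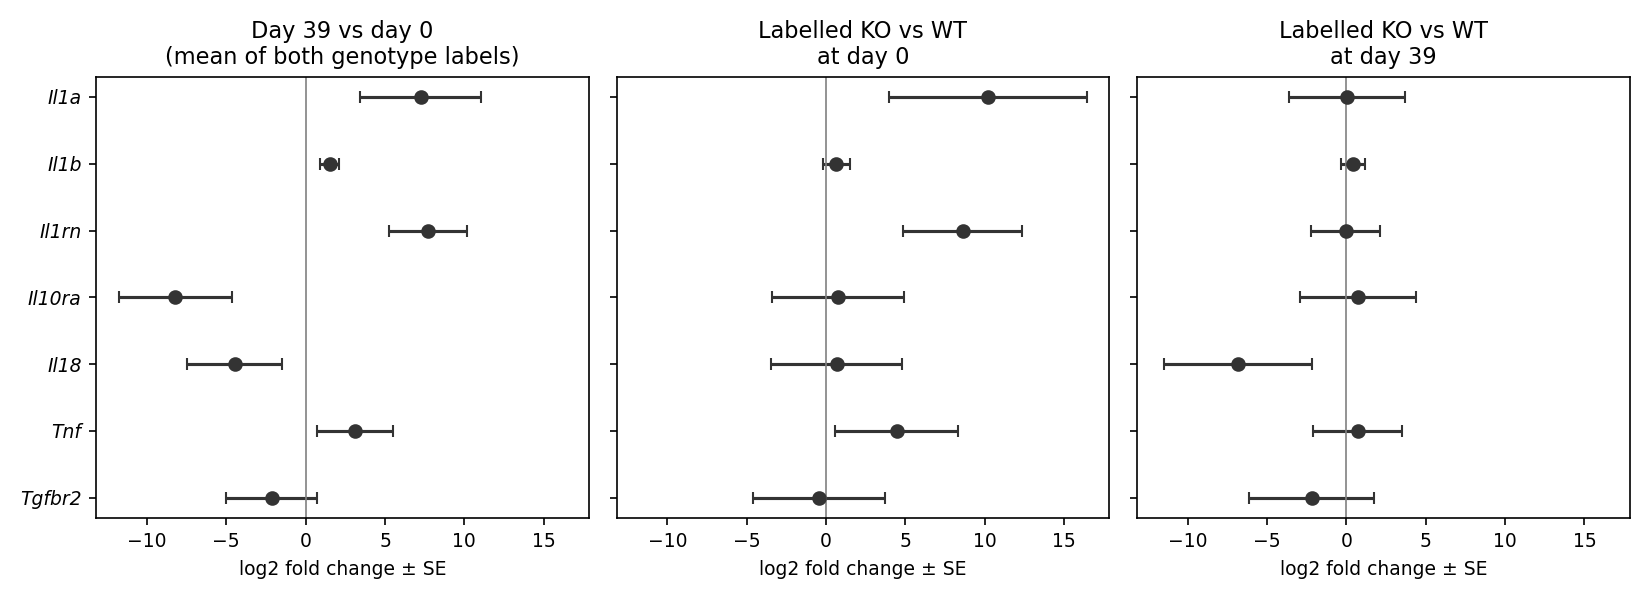
Log2 fold change (points) with its SE (bars) from edgeR for the 7 tested genes in day 39 against day 0 averaged over the labels, KO against WT at day 0 and KO against WT at day 39. The SE was worked back from the F statistic of the test. None of the points passed an adjusted p under 0.05, and the Il1b bars are the shortest in each panel.

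The wider pathway was examined in 93 other genes of the IL-1, IL-6, IL-10, IL-12, TNF and TGF-beta axes and other macrophage cytokines, of which 48 passed the filter, 24 had 0 counts in all libraries and 2 (Socs3 and Tgfbi) had more than 3 counts in all 11. None of the 48 was called by edgeR in any of the 6 comparisons. At an unadjusted p under 0.05 there were 8 for the day averaged over the labels (6 higher, 2 lower), 2 in WT, 5 in KO, 3 and 1 for the genotype at day 0 and day 39, and 4 for the difference between the days. The shares of all tested genes were 19.2%, 6.68%, 18.2%, 7.99%, 7.28% and 14.4% in that order, so the pathway counts, each out of 48, were not above the background. Smad7, which encodes an inhibitor of TGF-beta signalling, had 0 counts in all day 0 libraries, 561, 1024 and 1 in the WT day 39 libraries and 543, 1 and 2466 in those from KO day 39, with an edgeR adjusted p of 0.163 for the day averaged over the labels. Il22ra1, the IL-22 receptor chain of epithelial cells, likewise had 0 counts at day 0, 636, 0 and 1107 in the WT day 39 libraries and 981, 841 and 1532 in those from KO day 39 (edgeR adjusted p = 0.148). Osm, the IL-6 family cytokine oncostatin M, had 2518 and 3208 counts in the WT day 0 libraries and 6, 0 and 0 in those from KO day 0 (edgeR adjusted p = 0.381), and at day 39 it had 4, 1118 and 0 in WT and 0, 1 and 1 in KO (edgeR adjusted p = 0.491). Mif, macrophage migration inhibitory factor, had 0 and 0 counts in WT day 0 against 546, 2173 and 2092 in the KO day 0 libraries (edgeR adjusted p = 0.381), and 2109, 19 and 1 in those from WT day 39 (edgeR adjusted p = 0.414 against WT day 0), with 297, 24 and 1 in those from KO day 39. Irak1, a kinase below the IL-1 receptor, had 858, 4420 and 3 counts in the WT day 39 libraries and 3, 8 and 5 in those from KO day 39 (edgeR adjusted p = 0.491), while at day 0 it had 1 and 2477 in WT and 2453, 4496 and 0 in KO. The smallest p for the difference between the days belonged to Il16 and Gsdmd, and each of these had over 100 counts in at most 2 libraries.

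Genes whose levels ran most like a member's were named by Pearson's r of log2(CPM + 1) over the 11 libraries, as a description. For Il1rn these were Sertad1 and Tcp1, both at 0.982, and each had counts in replicate 3 of KO day 0 and in all 6 day 39 libraries. For Il18 they were Pde4dip (0.984) and Med22 (0.977), which were high in the same 3 libraries as Il18. For Tgfbr2 they were Itgax (0.899) and Fbxw2 (0.895), and for Tnf Phrf1 is given (0.850). For Il1b they were the histone genes Hist1h2af (0.893) and Hist1h2ah (0.890), whose near-identical copies make their counts uncertain. The highest value between members was 0.643, between Il1b and Tnf. The libraries share their depth and their many zeros across genes.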

How the data were processed

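RNA was extracted with Trizol and made into Lexogen QuantSeq 3′ libraries, per the labels' protocols. Bowtie2, edgeR and the build hg19, a human build named for mouse samples, are listed per the submitters' processing notes. The counter, annotation, strand setting and filters are not given in the sources used here. The authors deposited raw counts per gene for each of 11 libraries (totals 4003299 to 14207919, median 4867194). File headers name the later day 35 for libraries titled day 39, and 3 for the WT day 0 library titled replicate 2. The titles were used.

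Genes were kept with filterByExpr by group (minimum count 10), scaled by TMM and tested with the robust edgeR 4.0.16 quasi-likelihood test over all 4 groups, with Benjamini-Hochberg adjustment over 6987 genes and a threshold of 0.05. The SE of an edgeR log2 fold change is its absolute value divided by the square root of the F statistic. DESeq2 1.42.0 was an alternative. Others were fitting unfiltered genes, scaling by DESeq2 size factors or by library size alone, a replicate block, each library left out, and, chosen after seeing the data, the KO libraries with over 100 Ptger4 counts left out. Floors and Poisson intervals (95%) cover counting error only. The test script was tested on counts simulated at a dispersion of 0.1, against a common dispersion of 6.16 in these data, so this checks the code and not the power of the test here.

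The members and lists were chosen with earlier results of these data known. Genes named were the 10 members, Ptger4, the 2 pathway genes with the smallest p in each comparison with none called, and the 2 genes closest to each tested member with more than 3 counts in at least 6 libraries. Casp1, Nlrp3, Pycard and Il10rb were picked after seeing their values. Some items that these rules name are not reported here. Promoter windows are from RefSeq GRCm38.p6; 8 of 10 members matched.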

Additional observations from a re-analysis of the deposited data

How the results depend on the processing

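DESeq2's own test made the largest difference: it called 2 members at day 0 between the labels, 3 in WT, 1 in KO, 3 averaged over the labels and 1 for the difference between the days, and 1249, 585, 1183, 1144, 1216 and 934 genes in the 6 comparisons (genotype at day 0, genotype at day 39, day in WT, day in KO, day averaged over the labels, difference between the days). The cause was not tested. The DESeq2 test moved 6 of the 25 log2 fold changes of members given in the text by over 1.5 times: Il1a to 22.62 at day 0, 24.65 in WT, 13.41 averaged over the labels and -22.48 for the difference, Il1b to 0.35 at day 0 and Il1rn to -0.02 at day 39. DESeq2 size factors moved 2 (Il1b to 0.35 at day 0, Il1rn to -0.02 at day 39), library size only 2 (Il1rn to -0.26 and Tnf to 0.47 at day 39) and no filter 3 (Il1b to 0.20, Il1rn to -0.26 and Tnf to 0.46 at day 39). Under the alternatives that keep edgeR's test and all libraries, edgeR called 0 members in each comparison. Its counts of genes called, in the same order from 1, 2, 1, 11, 21 and 0, moved as follows. Library size only gave 0 at day 0 (563 at an unadjusted p under 0.05), 0 in WT (462), 9 averaged over the labels and 2 for the difference. DESeq2 size factors gave 0 in WT (456) and 2 for the difference. No filter gave 0 at day 0 (661), 0 at day 39 (428), 0 in WT (505), 0 in KO (1261) and 2 averaged over the labels. Leaving out the libraries labelled KO with over 100 Ptger4 counts, chosen after seeing the data, gave 0 at day 0 (142), 0 at day 39 (136), 7 in KO and 4 averaged over the labels, with 0 members called in each.

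The replicate block gave 0 genes at day 0 (211 at an unadjusted p under 0.05), 1 at day 39, 0 in WT (207) and 7 averaged over the labels, and turned the Tnf log2 fold change averaged over the labels to -1.17. Whether the replicate numbers pair the libraries could not be decided. Over 15 same-numbered pairs the correlation of deviations from the group means ran from -0.0137 to 0.0697, with a mean of 0.0097. Over the 30 other pairs it ran from -0.0697 to 0.0457, with a mean of -0.0049. Of 11 libraries, 6 correlated best with their own number. In groups this small the deviations depend on each other, and a WT day 0 library is numbered differently in its title and its file header.

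With each library left out in turn, the genes called ranged from 0 to 5 at day 0, 0 to 2 at day 39, 0 to 1 in WT, 5 to 15 in KO, 1 to 62 averaged over the labels (62 without replicate 1 of KO day 0) and 0 to 8 for the difference. The members called ranged from 0 to 1 averaged over the labels (Il1b without replicate 1, and Il1rn without replicate 3, of KO day 0). Log2 fold changes that turned ranged from -0.68 to 1.53 (Il1b) and -2.61 to 11.38 (Il1rn) at day 0, from -0.12 to 1.42 (Il1b), -1.38 to 1.32 (Il1rn) and -1.92 to 8.86 (Tnf) at day 39, from -0.95 to 7.21 (Tnf) and -2.96 to 3.92 (Tgfbr2) averaged over the labels, and from -11.62 to 2.34 (Il1rn) and -12.30 to 0.048 (Il1a) for the difference. Of 42 fitted values of members, 22 changed sign in at least 1 such fit. For the day averaged over the labels, Il1b, Il1rn, Il1a and Il10ra kept their sign in all of these fits, and Il18 ranged from -7.22 to -0.37. Tnf ranged from 3.58 to 12.81 and Il1a from 0 to 10.75 at day 0. In all, 20 of those 25 values turned, went to 0 or moved by over 1.5 times when a library was left out, and 10 did so under the replicate block: besides Tnf above, Il1rn to 2.30 at day 0, -0.0027 at day 39, 7.84 in KO and -2.30 for the difference, Tnf to 3.37 at day 39, Il1b to 0.41 at day 0 and 0.71 at day 39, and Il18 to -2.13 in KO and -1.34 at day 39. With a minimum of 10 counts in place of more than 3, a library held 2 to 6 of the 10 members, and with 100 counts 2 to 5. Where an arm was left with 1 library, that library was assumed to vary like the other groups.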
